A study of Rattus norvegicus with 11 samples.

Results

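Brain-derived neurotrophic factor, encoded by Bdnf (ENSRNOG00000047466), and its receptor TrkB, encoded by Ntrk2 (ENSRNOG00000018839), were followed in RNA-seq of the adult rat medial prefrontal cortex (mPFC). Both members were picked by Ensembl identifier, and both were among the 15607 genes measured in all 11 samples. The rats were Sprague-Dawley animals aged 2 to 3 months, with 4 females in diestrus, 3 females in proestrus and 4 males, and the labels give no drug or genetic change for any of them. Daily vaginal smears, which staged the cycle, were taken from the females. The sexes were kept in separate rooms by the study's methods, so that sex, room and smearing cannot be told apart. The methods give no hour of killing for the males. Proestrus is the stage of the estrous cycle with high levels of ovarian hormones, and the first day of diestrus is one with low levels. By the study's methods, diestrus females were killed early in the day and proestrus females in the early afternoon, so that the stage and the hour cannot be told apart. Tissue was taken as punches, and each library was sequenced from poly(A) RNA without strand information.

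BDNF is a secreted protein that neurons, mainly excitatory ones in the cortex, make and release with activity. It binds the receptor tyrosine kinase TrkB, which signals through the MAP kinase, phosphoinositide 3-kinase and phospholipase C pathways and is known for its part in the growth and strengthening of synapses. Bdnf is transcribed from several promoters that splice to a shared coding exon, and Ntrk2 gives a full-length receptor with a kinase domain and truncated receptors without one, which are abundant in astrocytes. The values here are sums of reads per gene, so that neither the promoters of Bdnf nor the receptor forms of Ntrk2 could be told apart. In bulk tissue, fewer cells of a type and less RNA per cell cannot be told apart either.

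The RefSeq promoter windows of rat Bdnf (build GRCr8) are 6 in number, all on the plus strand of chromosome 3, and the 250 bases upstream of each start were searched on both strands. The upstream sequence shown here holds the TCACGTCA form of the cyclic AMP response element, the kind of site bound by the activity-regulated factor CREB. It covers chr3:116637608-116637857 on the plus strand, with the match in capitals at 38 bases before the start.
Bdnf, window 4 of 6: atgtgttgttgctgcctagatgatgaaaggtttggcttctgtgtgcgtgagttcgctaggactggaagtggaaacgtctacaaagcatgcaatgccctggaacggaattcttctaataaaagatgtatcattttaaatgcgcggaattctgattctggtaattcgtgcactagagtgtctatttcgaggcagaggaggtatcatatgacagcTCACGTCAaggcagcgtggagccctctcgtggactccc
This match was found in 1 of the 6 Bdnf windows and in 0.350% of the 33469 rat windows of that length. The canonical form TGACGTCA, found in 1.59% of all windows, the EGR site GCGTGGGCG (0.478%), the E-box CACGTG (5.59%) and the estrogen response element GGTCANNNTGACC (0.0239%) had no match in the 6 Bdnf windows. A match describes letters alone, and the per-gene counts used here cannot show which start was used in these samples. No window of Ntrk2 was analysed here.

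Values are DESeq2-normalized counts, read counts that the authors divided by 1 size factor per library, and they serve to compare samples within a gene, as they are not scaled to gene length. The libraries held 15.9 to 24.6 M reads on genes. Bdnf had 482 to 1042 reads per library, for which counting error alone was 3.10% to 4.55%, and Ntrk2 had 1461 to 2655 reads, with a counting error of 1.94% to 2.62%. By the study's methods, the samples of a group are biological replicates. Rats were housed in pairs, and both females of a pair were killed once both had reached the stage. Which samples shared a cage is not known here, and no test took it into account.

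The level of the ligand was highest in the males. Bdnf was 819, 875, 1039 and 1008 normalized counts in male replicates 2 to 5. In proestrus it was 629 in replicate 1, 717 in replicate 3 and 679.7 in replicate 5. In diestrus it was 757, 525, 589 and 709.7 in replicates 2 to 5. Each of the 7 females lay below each of the 4 males, and the range of the proestrus samples lay wholly inside the diestrus range. The male mean was 935 ± 105 (SD, n = 4), against 675 ± 44.1 for proestrus (SD, n = 3) and 645 ± 107 for diestrus (SD, n = 4).

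The level of the receptor was ordered by another pattern, with the proestrus females at the top. Ntrk2 was 2388, 2523 and 2485 normalized counts in proestrus replicates 1, 3 and 5. In diestrus it was 1589, 1593, 1880.4 and 1901 in replicates 2 to 5, so that each proestrus sample exceeded each diestrus sample. In males it was 2077, 1667, 2442 and 1932 in replicates 2 to 5. The males thus ran from the lower part of the diestrus range to the proestrus range, with 3 of 4 above each diestrus sample and 3 of 4 below each proestrus sample. The proestrus mean was 2466 ± 69.5 (SD, n = 3), above 2029.8 ± 323 for males (SD, n = 4) and 1741 ± 173 for diestrus (SD, n = 4).

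**Figure D1:**
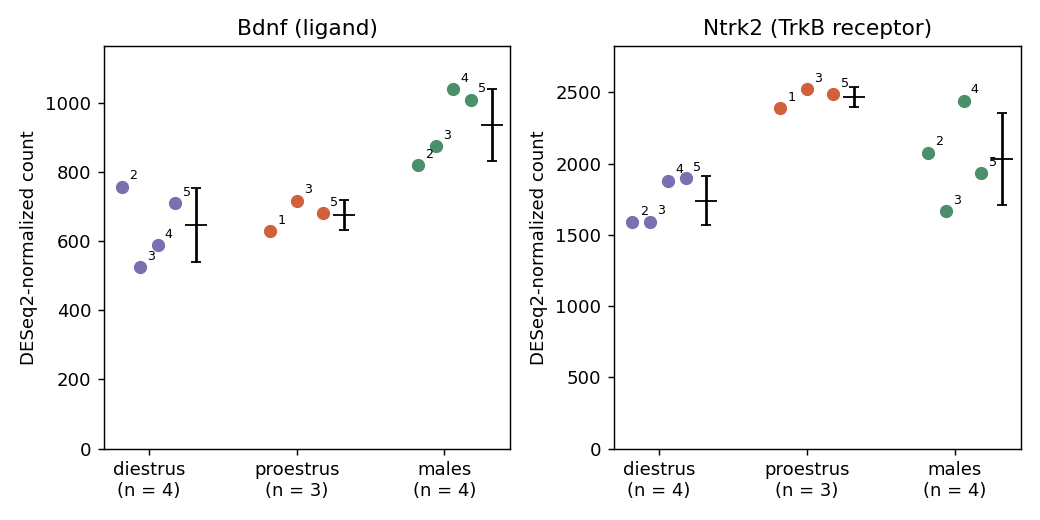
DESeq2-normalized counts (vertical axes, from 0) of Bdnf (left) and Ntrk2 (right) by group, with 1 point per sample, its replicate number beside it, and the mean ± SD as a bar to the right of each group. The 7 females sit below the 4 males for Bdnf, and the 3 proestrus samples sit above the 4 diestrus samples for Ntrk2.

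To ask whether the stage of the cycle was reflected in ligand and receptor, proestrus was compared with diestrus. Ntrk2 was higher in proestrus, by a log2 fold change of 0.51 (SE 0.11, 95% interval 0.27 to 0.75), or 1.42-fold, and it passed the false discovery rate (FDR) of 0.05 in limma over all 15607 genes (adjusted p = 0.0385). Of all genes, 2.53% passed in this comparison (382 with the higher level in proestrus and 13 with the lower, against 883 and 193 with DESeq2 and 320 and 28 after quantile normalization), and 1.34% had a p at or below that of Ntrk2. The groups did not overlap for Ntrk2, as for 26.6% of all genes. In an exact permutation test, two-sided, its p was 0.0286, the smallest that the 35 splits of 3 against 4 samples allow. The call was also made with DESeq2 (adjusted p = 0.00268), which called 6.89% of genes, and with edgeR's quasi-likelihood test (adjusted p = 0.0355), which called 2.7%, on the recovered reads. It depended on single libraries. The limma adjusted p was 0.176 without proestrus replicate 1, 0.134 without proestrus replicate 3, 0.126 without proestrus replicate 5, 0.127 without diestrus replicate 2, 0.114 without diestrus replicate 3 and 0.0581 without diestrus replicate 4. Without male replicates 2 and 5, left out 1 at a time, it was 0.0617 and 0.0566, and without diestrus replicate 5, male replicate 3 or male replicate 4 it was 0.0181, 0.00680 and 0.0144, while the log2 fold change ran from 0.46 to 0.55 over all 11 omissions.

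Bdnf did not pass in that comparison. Its log2 fold change of proestrus over diestrus was 0.08 (SE 0.13, 95% interval -0.19 to 0.35; limma adjusted p = 0.701), an interval that leaves room for a difference of either sign. The exact permutation p was 0.629 (two-sided). Without diestrus replicate 3, the lowest Bdnf sample, the log2 fold change was -0.016.

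To ask whether the sexes differed, all females were compared with males. Bdnf had a log2 fold change of -0.51 (SE 0.10, 95% interval -0.74 to -0.28), with a female mean of 658 ± 81.3 (SD, n = 7) beside 935 for males, so that the male level was 1.42 times the female level. Its adjusted p in limma was 0.111, which did not pass the FDR, as 0.135% of all genes did. Ranked by p, Bdnf was gene 39 of 15607. In an exact permutation test, two-sided, p was 0.00303, the smallest that 330 splits allow, and the absence of overlap between females and males was shared by 1.06% of all genes. DESeq2 on the recovered reads called Bdnf lower in females (adjusted p = 0.00255), in a comparison where it called 0.487% of genes, and edgeR's quasi-likelihood test gave an adjusted p of 0.0930. The call for Bdnf thus hung on the tool, while the log2 fold change stayed between -0.57 and -0.46 when each library was left out in turn.

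The gap between females and males in Bdnf was then taken apart by stage, in comparisons that share the same 4 males. Diestrus females had a log2 fold change of -0.54 against males (SE 0.12, 95% interval -0.79 to -0.29; limma adjusted p = 0.151), where 0.128% of genes passed. Groups that did not overlap were found for 3.84% of genes, Bdnf among them, and the exact permutation p was 0.0286 (two-sided), the smallest that 70 splits allow. DESeq2 called Bdnf lower in diestrus (adjusted p = 0.00809) and 0.75% of genes overall. Proestrus females had a log2 fold change of -0.47 against males (SE 0.13, 95% interval -0.74 to -0.19; limma adjusted p = 0.283), where 0.0833% of genes passed and 13.3% did not overlap, Bdnf among the latter. DESeq2 gave an adjusted p of 0.0598 there, and the exact permutation p was 0.0286 (two-sided), again the smallest possible. Proestrus and diestrus did not differ in Bdnf beyond their spread in the comparison above.

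No sex difference was detected for Ntrk2 when the stages were pooled, with a female mean of 2051 ± 408 (SD, n = 7) beside 2029.8 for males and a log2 fold change of 0.0040 (95% interval -0.31 to 0.32; limma adjusted p = 0.9997). By stage, the log2 fold change against males was 0.29 in proestrus (SE 0.11, 95% interval 0.05 to 0.54; adjusted p = 0.397) and -0.21 in diestrus (SE 0.10, 95% interval -0.44 to 0.01; adjusted p = 0.535). Neither passed the FDR in limma, edgeR or DESeq2. The exact permutation p was 0.0857 for proestrus and 0.143 for diestrus, both two-sided. In the order proestrus, males, diestrus, neighbours therefore did not pass the FDR against each other, and the ends of that order did.

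**Figure D2:**
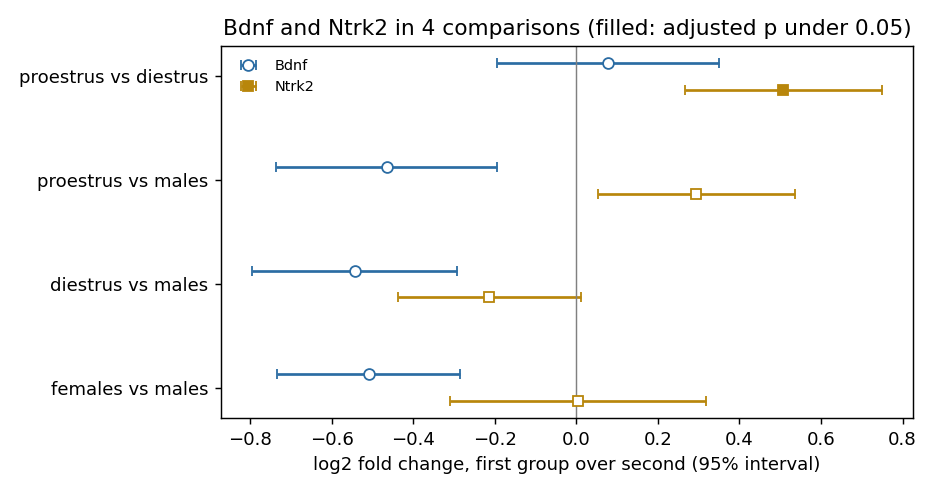
Log2 fold change (horizontal axis, first group over second) of Bdnf (circles) and Ntrk2 (squares) in the 4 comparisons, with 95% intervals from limma and filled symbols where the adjusted p was under 0.05. The Ntrk2 symbol for proestrus vs diestrus at 0.51 is filled, and Bdnf lies below 0 in each comparison with males.

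As the order of the groups was not the same for ligand and receptor, the receptor to ligand ratio was described per sample, with no test. The log2 ratio of Ntrk2 over Bdnf normalized counts was 1.93, 1.82 and 1.87 in proestrus replicates 1, 3 and 5. It was 1.07, 1.60, 1.67 and 1.42 in diestrus replicates 2 to 5, and 1.34, 0.93, 1.23 and 0.94 in male replicates 2 to 5. Each proestrus sample thus exceeded each of the other 8 samples, and diestrus and males overlapped through diestrus replicate 2. The mean log2 ratio was 1.87 ± 0.05 for proestrus (SD, n = 3), 1.44 ± 0.27 for diestrus (SD, n = 4) and 1.11 ± 0.21 for males (SD, n = 4). The ratio places samples relative to each other and says nothing of molecules of receptor per ligand, since transcript lengths differ.

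Across the 11 samples, the 2 genes showed little relation. Pearson's r of their log2 values was 0.17 (permutation p = 0.614, 100000 resamples) and Spearman's rho was 0.16 (permutation p = 0.635), and both p-values were 0.635 after Benjamini-Hochberg adjustment over the pair. Without the 2 samples farthest from the Bdnf median, male replicates 4 and 5, r was 0.01. The deviations from the group means had an r of 0.29.

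The members also differed in how many other genes shared their pattern. Among 11730 other genes that averaged 50 normalized counts or more, 670 had a Pearson correlation of at least 0.9 with Ntrk2 over the 11 samples, and none reached that with Bdnf. At 0.8, the numbers were 1725 genes for Ntrk2 and 31 for Bdnf. The genes most like Ntrk2 were ENSRNOG00000019063 (r = 0.984), with 450.4 ± 54.3, 649 ± 18.6 and 515 ± 74.3 normalized counts in diestrus, proestrus and males (SD, n = 4, 3 and 4), and ENSRNOG00000007485 (r = 0.981). The genes most like Bdnf were ENSRNOG00000011648 (r = 0.892), with 106 ± 30.4, 109.8 ± 40.9 and 244 ± 23.1 normalized counts in these groups, and ENSRNOG00000004210 (r = 0.887). All samples and libraries are shared by these correlations, which are given as a description.

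The same contrast was seen in the main axes of variation. The first principal component of these genes held 53.7% of their variance, and log2 Ntrk2 had an r of 0.94 with its scores, whereas Bdnf had 0.22. Its scores were 18.1 to 21.9 in proestrus, -30.5 to 4.25 in diestrus and -24.6 to 18.5 in males, so that male replicate 3, the lowest male in Ntrk2, lay near diestrus replicates 2 and 3, and male replicate 4, the highest, lay with proestrus. The second component, with 11.9% of the variance, had an r of 0.81 with Bdnf and -0.02 with Ntrk2, and its scores were 8.54 to 13.6 in males and -12.2 to -0.68 in females. Each member was 1 of the 11731 genes in the components, and the part of the first component in the Ntrk2 difference was not tested.

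**Figure D3:**
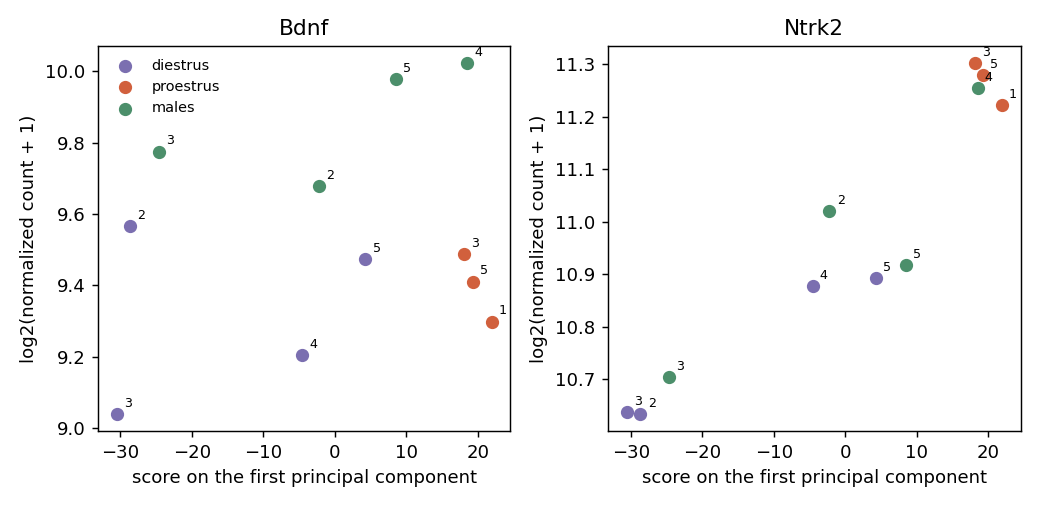
Log2(normalized count + 1) of Bdnf (left) and Ntrk2 (right) against each sample's score on the first principal component of 11731 genes, with 1 point per sample and its replicate number. Ntrk2 is higher in samples with higher scores (r = 0.94 over 11 samples), and Bdnf of the females lies below that of the males at any score (r = 0.22).

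Other genes of the pathway could be examined only where an identifier was paired with a symbol. The neurotrophin ligand and processing list (18 symbols) and the receptor list (12 symbols) had no further gene paired beside the members. Of 60 genes of TrkB signalling, 4 were paired, and of these 1 passed the FDR in proestrus vs diestrus, higher in proestrus, where 2.53% of all genes passed, and none passed in the other comparisons. The median log2 fold change of the 4 in proestrus vs diestrus was 0.47, beside -0.01 over all genes. It rested on Rps6ka6, which had 0 to 8 reads per female library, and was 0.19 with a pseudocount of 5 and -0.15 over the 3 genes that averaged 10 normalized counts or more. The gene that passed was Pik3r3, a regulatory subunit of phosphoinositide 3-kinase, which was 174, 172 and 189 normalized counts in proestrus replicates 1, 3 and 5 and 64.7, 53.4, 76.2 and 121 in diestrus replicates 2 to 5. Its log2 fold change was 1.23 (SE 0.30) with an adjusted p of 0.0489 in limma, just inside the threshold, and the call was lost with a pseudocount of 0.5 (adjusted p = 0.0501), with a filter at a mean of 10 normalized counts (0.0503) and with quantile normalization (0.0517). With each library left out in turn, it passed only without diestrus replicate 5, male replicate 3 or male replicate 4, and the adjusted p reached 0.198 without proestrus replicate 1.

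The other 3 paired genes did not pass. Their log2 fold changes of proestrus over diestrus were -0.37 for Mapk7, the MAP kinase ERK5, -0.15 for the adaptor Sh2b2, and 1.09 for the kinase Rps6ka6 at fewer than 10 normalized counts in each female sample, with limma adjusted p-values of 0.296, 0.626 and 0.422 in that order. With each library left out in turn, they ran from -0.48 to -0.17, from -0.27 to -0.022 and from 0.45 to 1.35.

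Of 22 activity-regulated genes, 2 were paired, and neither passed the FDR in limma in any of the 4 comparisons. Egr2, a zinc finger transcription factor induced by neuronal activity, was 1246 to 1615 normalized counts in males, 483 to 1109.9 in diestrus and 442 to 1011 in proestrus, so that its females lay below its males, as for Bdnf, where 1.06% of all genes did not overlap. Its log2 fold change of females over males was -1.02 (SE 0.23; limma adjusted p = 0.177), and DESeq2 called it lower in females (adjusted p = 0.0123), as it called 0.487% of all genes in either direction. Nptx2, a secreted pentraxin that gathers at excitatory synapses, had a log2 fold change of females over males of -0.27 (SE 0.12; limma adjusted p = 0.978). The sexes overlapped, while its proestrus samples (1842 to 2121) lay below its males (2248 to 2747), in a comparison where 13.3% of all genes did not overlap. The median of the 2 genes in females vs males was -0.65, beside 0.01 over all genes. It is the midpoint of the values of Egr2 and Nptx2 and does not describe the rest of the 22.

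**Figure D4:**
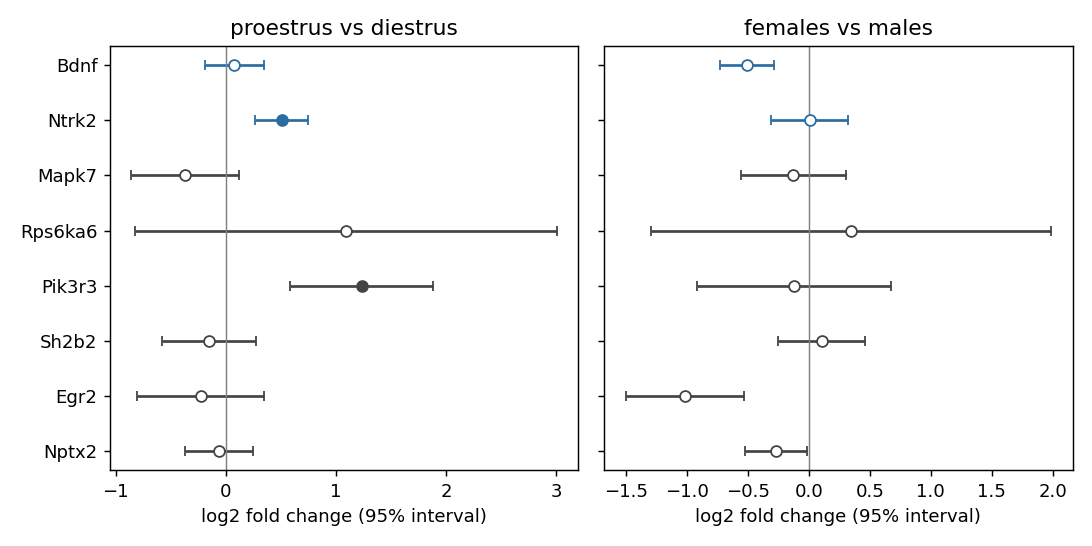
Log2 fold change with 95% intervals (horizontal axes) of the members, the 4 paired TrkB signalling genes and the 2 paired activity-regulated genes in proestrus vs diestrus (left) and females vs males (right), with filled symbols where the limma adjusted p was under 0.05. Ntrk2 and Pik3r3 are filled on the left at 0.51 and 1.23, and no symbol is filled on the right, where Egr2 and Bdnf lie at -1.02 and -0.51.

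Markers of cell types were given beside these results for the genes that were paired. Of 5 markers each, 2 were paired for interneurons (Gad1 and Sst), 2 for microglia (Aif1 and Tmem119) and 1 for striatal neurons (Adora2a), and of 4 for oligodendrocytes, 1 was paired (Mog), and all 6 were detected in each sample. None was paired for neurons in general, astrocytes or endothelial cells, so that the label of the tissue and the share of astrocytes, which also express Ntrk2, were not checked here. No paired marker passed the FDR in limma in any comparison. Mog, which encodes a protein of the myelin surface, was 792 to 1381 normalized counts in females and 613 to 915 in males, and the sexes overlapped (log2 fold change of females over males 0.38, limma adjusted p = 0.913). In diestrus it was 838 to 1381, with a log2 fold change over males of 0.52 (SE 0.15, unadjusted p = 0.00390, limma adjusted p = 0.336), a size close to that of Bdnf in the same comparison and opposite in sign. Between the stages, its log2 fold change of proestrus over diestrus was -0.33 (adjusted p = 0.201). That of the microglia genes was -0.32 for Aif1 (95% interval -0.62 to -0.02, limma adjusted p = 0.172) and -0.09 for Tmem119 (adjusted p = 0.662), and that of the interneuron genes was 0.12 for Gad1 (adjusted p = 0.388) and -0.24 for Sst (adjusted p = 0.299). With each library left out in turn, Mog ran from -0.46 to -0.22, Aif1 from -0.41 to -0.21 and Tmem119 from -0.15 to 0.0025. Gad1 ran from 0.049 to 0.17 and Sst from -0.35 to -0.13. Adora2a, an adenosine receptor enriched in the striatum, was 305 normalized counts in proestrus replicate 5, against 102 and 104 in the other proestrus samples, 141 to 179.6 in diestrus and 95.8 to 157 in males. The part of these markers in the results on Bdnf and Ntrk2 was not tested.

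**Figure D5:**
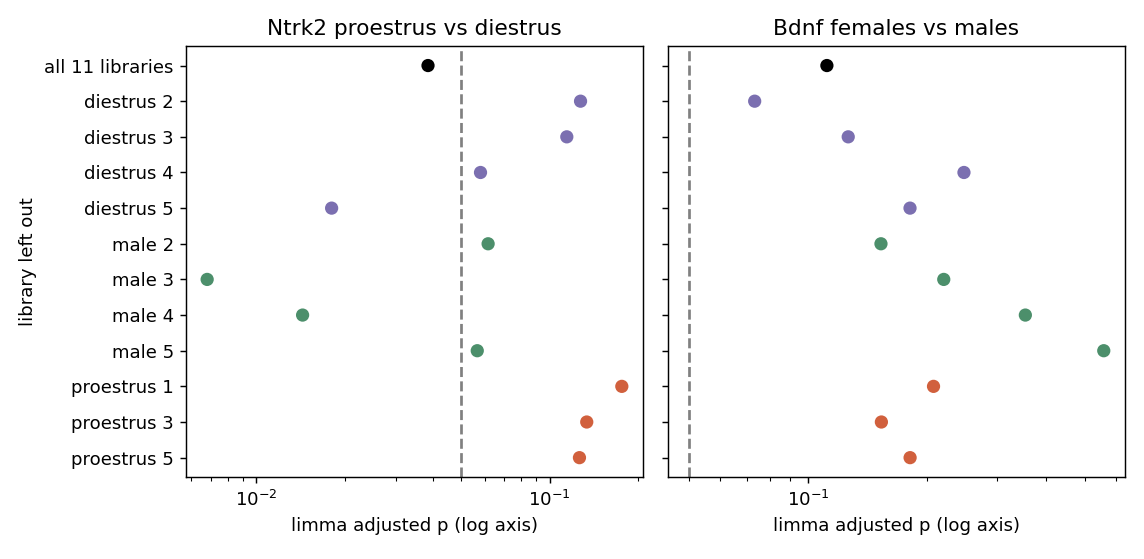
Limma adjusted p (horizontal log axes) for Ntrk2 in proestrus vs diestrus (left) and Bdnf in females vs males (right), with all 11 libraries and with each library left out, colored by its group, and the FDR of 0.05 as a dashed line. Ntrk2 runs from 0.00680 to 0.176 across the line, and Bdnf runs from 0.0732 to 0.558, to the right of the line throughout.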

How the data were processed

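Poly(A) libraries of mPFC punches were sequenced by the authors, trimmed (Trimmomatic 0.32), aligned to Rnor_5.0 (TopHat2 2.0.11, Bowtie2 2.1.0) and counted per Ensembl gene (HTSeq 0.6.1p1), and 1 proestrus library was removed by them as an outlier. The deposited signal used here is a table of read counts divided by DESeq2 size factors. In each library 100% of its values became whole reads within 0.01. A second deposited table was not used, as its values were not on a common scale. Limma 3.58.1 (R 4.3.3) with a trended prior was fitted to log2(value + 1) of 15607 genes, with 3 groups or, for females vs males, with sex, followed by Benjamini-Hochberg adjustment over all genes. Fold changes are differences of mean log2(value + 1), which for low genes depend on the pseudocount and can differ from the ratio of group means. As alternatives, DESeq2 1.42.0 and edgeR 4.0.16 (quasi-likelihood) took the reads as input. Permutation tests for the 2 members were made in 4 comparisons each, unadjusted. The members and lists were chosen with earlier results of these data known. Named genes were the members, list genes with a paired symbol, and the genes most correlated with each member. The files pair no symbols with identifiers, and a RefSeq table of 47357 genes paired 0, so names came from the symbol column of a supplementary gene table of the study, held for 1238 of the lowest identifiers, which gave 12 list genes beside the members. The other list genes were not analysed here, and some items are not reported here.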

Additional observations from a re-analysis of the deposited data

Results flagged for a closer look

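The difference of Ntrk2 from males was 0.51 higher in proestrus than in diestrus (log2, limma adjusted p = 0.0385), a test of the difference between the stages' sex effects that is the same contrast as proestrus vs diestrus. For Pik3r3 that difference was 1.23 (limma adjusted p = 0.0489). Rps6ka6 was at 0.0 normalized counts in diestrus replicate 3, against 4.55 in the nearest diestrus sample, and stood apart by Dixon's criterion, at a level of a few reads per library. Adora2a, a striatal marker, was 305 normalized counts in proestrus replicate 5, against 179.6 in the nearest of the other 6 females. Of 45 sets of samples examined in this way 2 stood apart, where chance gives about 1 in 20.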

How the results depend on the processing

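Bdnf passed with DESeq2 in females vs males (log2 fold change -0.51) and diestrus vs males (-0.53), and not with limma or edgeR. In the exact permutation test, with no adjustment over genes, it passed in females vs males (-0.51), diestrus vs males (-0.54) and proestrus vs males (-0.47). Ntrk2 proestrus vs diestrus passed with a pseudocount of 0.5 or 5, a filter at a mean of 10 normalized counts, quantile normalization, edgeR, DESeq2, the groups compared alone and the replicate block, with adjusted p from 0.00268 to 0.0420, and lost the call without 8 of the 11 libraries. With each library left out, Bdnf ran from -0.016 to 0.16 (proestrus vs diestrus), -0.53 to -0.41 (proestrus vs males), -0.62 to -0.45 (diestrus vs males) and -0.57 to -0.46 (females vs males), and Ntrk2 from 0.46 to 0.55, 0.20 to 0.39, -0.30 to -0.12 and -0.086 to 0.097 in the same order. The number of genes past the FDR was 395, 13, 20 and 21 in these comparisons, 1076, 118, 117 and 76 with DESeq2, and 817 and 23 with the groups compared alone in the first 2. With each library left out it was 0 to 1774, 2 to 26, 1 to 88 and 1 to 24. The count in proestrus vs diestrus was 0 in limma without proestrus replicate 1 (2766 genes at an unadjusted p under 0.05) or proestrus replicate 3 (2960 genes), and 1774 (1253 higher and 521 lower) without diestrus replicate 5. The cause was not tested.

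Replicate numbers are shared between groups. By the study's methods, males were killed on the same days as females, but neither labels nor methods tie a number to a day. Deviations of same-numbered samples from their group means correlated at 0.0116 to 0.591 in 8 pairs, 6 of which were above 0.1, beside -0.670 to 0.580 in 32 pairs with different numbers, and 6 of 10 samples correlated best with their own number, a hint from the data. With the replicate number as a block, 3 genes passed for proestrus vs males and 47 for diestrus vs males, the Ntrk2 difference of females vs males was -0.039 (adjusted p = 0.999), and no call of either member changed.

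Depth limits genes such as Rps6ka6, with a few reads per library, and not the members. The 3 proestrus samples limit every comparison that uses them.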
